A study of Mus musculus with 6 samples.

Results

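The 10 genes described here belong to the Nodal and BMP signalling pathways. They were taken by symbol from a deposited table of 23281 genes: the ligands Nodal and Bmp4, the Nodal coreceptor Tdgf1, the secreted antagonists Lefty1 and Lefty2, the intracellular inhibitors Smad7 and Skil, and the target genes Id1, Id2 and Id3. All 10 were in the table, and all passed the minimum of 100 reads per library on average. Nuclear RNA was taken from a female embryonic stem cell line of mouse, 129S X Cast. In this line a doxycycline-driven TetOn promoter had replaced the Xist promoter on the 129S allele, and a Bgl stem-loop sat at the 3' end of Xist; every library shared these alleles. The titles of all 6 libraries also name Halo (BglHalo). Cells were kept in doxycycline (1 µg/ml) for 17.5 to 20 h and then labelled for 4 h with 500 µM 4-thiouridine (4sU), a uridine analogue that reads as T-to-C (T>C) conversions after iodoacetamide treatment (SLAM-seq). The label was then chased with 50 mM uridine, doxycycline still present, for 30, 60, 90, 120 or 150 min, and the 0 min culture was not chased. Each of the 6 times had 1 library, so no spread between cultures could be measured, and whether the cultures were one clone is not stated in the labels.

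Nodal is a TGF-beta family ligand that acts through activin receptors, the coreceptor Cripto (Tdgf1) and SMAD2/3. It switches on its own secreted antagonists, the Lefty proteins, which makes a feedback loop known from the early embryo and from stem cells. Smad7 and Skil (SnoN) are intracellular brakes on SMAD signalling and are themselves SMAD targets. BMP4 signals through SMAD1/5 to the Id genes, whose helix-loop-helix proteins block differentiation factors in embryonic stem cells.

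Libraries held 18558073 to 28535162 reads. Of all covered T positions, 4.05, 2.69, 4.11, 2.57, 1.55 and 1.17% read as C at 0, 30, 60, 90, 120 and 150 min, so the libraries read as 30 and 60 min stood out of order. Counts of genes that lost labelled share are therefore given without them too. Embryonic stem cell markers were abundant, with a summed level of 1582 to 1950 RPKM (reads scaled by gene length and library total) over 8 genes, among them Pou5f1, Nanog and Zfp42. The cultures had been pre-plated to discard feeder cells, yet 8 fibroblast markers summed to 66.1 to 92.9 RPKM. Col1a1 had 1652 to 3170 reads per library and Dcn 257 to 515, whereas Lum had 0 to 4. The 8 primitive endoderm markers summed to 45.7 to 67.0 RPKM, nearly all of it Col4a1 and Pdgfra, with Foxa2 at 0 to 4 reads and Gata6 at 7 to 18. No marker was at 0 in every library, and 0 changed in total reads (edgeR, adjusted p under 0.05) of the 8 stem cell, 4 endoderm and 7 fibroblast markers tested. By the same test 0 of all 14389 genes fell and 0 rose, so these marker counts do not show that the cell mixture was stable. The part of feeder RNA in the values below was not tested.

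Label was lost quickly from 8 of the 10 genes: Nodal, Id1, Bmp4, Smad7, Lefty1, Id3, Id2 and Skil. Tdgf1 and Lefty2, which had the highest levels, did not pass. The measure was the labelled share, the authors' posterior mean of the fraction of a gene's reads that carry label, and the rate of loss was the slope of its natural log on washout time (limma, adjusted p under 0.05). Over all 11462 genes tested, 52.3% fell by this rule and 1.19% rose. The median loss rate was 0.93 per h over the 10 genes and 0.25 per h over all genes tested. P-values here measure the scatter of 6 libraries around a line and not a spread between cultures. The limma SE and p-values use a variance drawn toward that of all genes tested. They therefore do not rest on a gene's own scatter alone, and half-life ranges at 1 SE carry the same limit. Decay and export from the nucleus cannot be told apart in nuclear RNA.

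**Figure D1:**
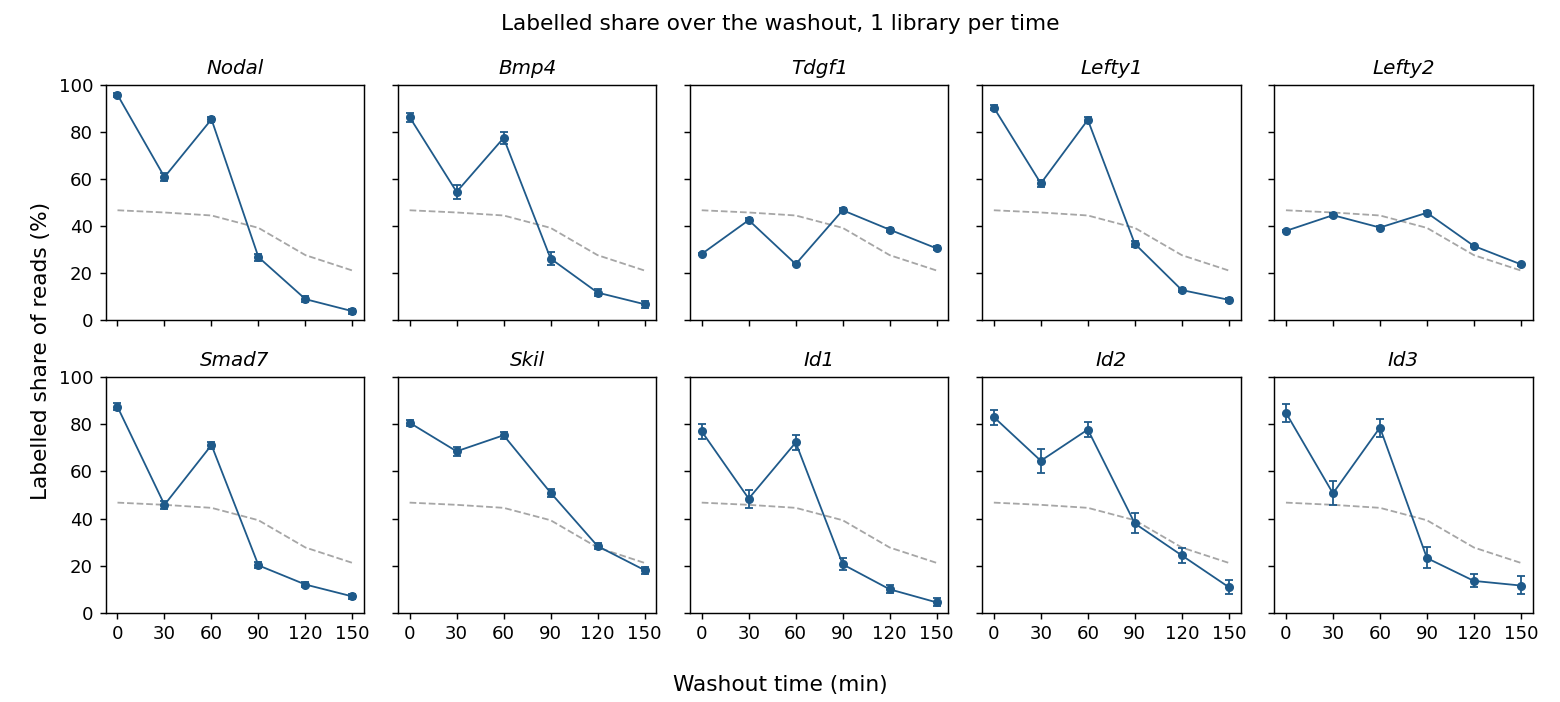
Labelled share of reads (%) against washout time (min) for each of the 10 genes, 1 library per time; bars span the authors' 5% to 95% posterior range and the dashed grey line is the median of all 11462 genes tested. Nodal went from 95.8% to 3.87%, while Tdgf1 began at 28.2% and ended at 30.5%.

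Most reads of the ligands were labelled after the 4 h pulse and few at the end, as in other genes that lost label quickly. Nodal (chr10:61417972-61425338 in mm10, plus strand, protein coding) had labelled shares of 95.8, 60.9, 85.4, 26.8, 8.98 and 3.87% in time order. The first 3 libraries, 30 min the lowest of them, all lay above the last 3. Its half-life was 31.7 min (28.5 to 35.8 at 1 SE; limma adjusted p = 5.12e-05), which placed it 15th from the fastest of 11462 genes. Without the 0 min library it was 26.8 min and without the 150 min library 37.4 min, both outside the range at 1 SE. A single half-life takes ln labelled share as a straight line on time, which was not tested. Bmp4 (chr14:46383520-46390669, minus strand) had 86.3, 54.6, 77.5, 26.2, 11.8 and 6.83%, with the same separation of early and late libraries. Its half-life was 39.6 min (35.3 to 45.2; limma adjusted p = 5.12e-05). Bmp4 overlaps 2 genes on the opposite strand, of which the one present in the table had at most 5 reads per library.

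No loss of labelled share was detected for the coreceptor. Tdgf1 (chr9:110939603-110946158, minus strand), which encodes Cripto, had labelled shares of 28.2, 42.6, 23.9, 46.8, 38.5 and 30.5%. The 30 and 90 min libraries were the highest and the 0 and 60 min libraries the lowest, and no slope was detected (loss rate -0.044 ± 0.110 per h, SE; limma adjusted p = 0.767). Its sign turned without the 0 min library (0.037 per h). The raw T>C rate of Tdgf1 was 2.68, 2.85, 2.65, 3.25, 2.01 and 1.53%, so by that measure the 150 min library was the lowest.

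The antagonist pair differed from each other. Lefty1 (chr1:180935022-180938400, plus strand) had labelled shares of 90.4, 58.2, 85.2, 32.5, 12.9 and 8.70%, a half-life of 42.3 min (37.4 to 48.8; limma adjusted p = 5.15e-05). Lefty2 (chr1:180893108-180899103, plus strand), its close neighbour on the chromosome, had 38.0, 44.7, 39.4, 45.7, 31.6 and 23.8%. Only the 120 and 150 min libraries of Lefty2 were below its 0 min value, and the loss rate of 0.18 ± 0.098 per h (SE) did not pass (limma adjusted p = 0.125). At that rate the half-life would be 225 min, with 147 to 476 min at 1 SE. It would be 140 min without the 0 min library and 599 min without the 150 min library. Lefty1 was above Lefty2 in the first 3 libraries and below it in the last 3.

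Both Lefty genes encode inhibitors that bind Nodal or its coreceptor, and their coding sequences are alike. Of 1104 aligned coding bases, 1014 (91.8%) were identical in the GENCODE M21 transcripts. Of the 81 nt stretches in Lefty1 transcripts, 10.3% also occur in Lefty2, and 6.84% of those in Lefty2 occur in Lefty1. No source used here states how the authors counted reads that fall in such stretches, so the values of both genes carry that uncertainty. For Tdgf1, 5.30% of 81 nt stretches recur in the pseudogene Tdgf1-ps1. The other 7 genes had none in another gene's transcripts.

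The intracellular inhibitors both lost label, Smad7 faster. Smad7 (chr18:75367529-75395935, plus strand), the inhibitory SMAD that occupies activated receptors, had labelled shares of 87.5, 45.8, 71.2, 20.1, 11.9 and 6.89%. Its half-life was 40.4 min (36.0 to 46.1; limma adjusted p = 5.12e-05). Skil (chr3:31095058-31122577, plus strand), the SnoN corepressor of SMAD complexes, had 80.7, 68.6, 75.4, 51.0, 28.3 and 18.1%. At 150 min Skil kept the largest labelled share of the 8 genes that fell. Its half-life was 69.1 min (58.9 to 83.7; limma adjusted p = 0.00021).

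All 3 Id targets lost label, Id1 fastest. Id1 (chr2:152736251-152737410, plus strand) had labelled shares of 77.0, 48.5, 72.3, 20.5, 9.92 and 4.36%, with a half-life of 35.7 min (31.9 to 40.6; limma adjusted p = 5.12e-05). It was the least labelled of the 8 genes at 0 min and, apart from Nodal, the least labelled at 150 min. Id3 (chr4:136143497-136145755, plus strand) had 84.9, 50.7, 78.7, 23.2, 13.5 and 11.5%, a half-life of 47.9 min (41.9 to 56.0; limma adjusted p = 6.66e-05). Id2 (chr12:25093799-25097140, minus strand) had 83.1, 64.5, 77.8, 37.9, 24.3 and 10.8%, a half-life of 52.6 min (45.9 to 61.7; limma adjusted p = 7.39e-05). In all 3 genes the last 3 libraries lay below the first 3. Id3 had the fewest reads, 324 to 637 per library, and its posterior range at 150 min was 8.06 to 15.5%.

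The labelled share at 60 min was above that at 30 min in 8 of the 10 genes, the exceptions being Tdgf1 and Lefty2. Over all genes tested 47.1% were higher at 60 than at 30 min. Without both libraries the same 8 genes fell, against 47.0% of all genes tested. Half-lives were then 33.1 min for Nodal, 37.4 for Id1, 41.2 for Bmp4, 41.2 for Smad7, 43.9 for Lefty1, 49.9 for Id3, 54.9 for Id2 and 72.0 for Skil. With the 30 and 60 min times exchanged they ran from 30.8 min for Nodal to 67.9 min for Skil. Libraries were also weighted by the width of the posterior range on the ln scale, narrow ranges counting most. For Nodal the weight lay mainly on the 0 and 60 min libraries, with ranges of 94.9 to 96.6% and 84.2 to 86.5%. Its 150 min range of 2.89 to 4.98% is wide on that scale. The weighted fit thus leaned on libraries with a high labelled share, the out-of-order 60 min library among them. These weights lengthened all 8 half-lives by more than 1.5 times. Nodal then had 145 min (limma adjusted p = 0.18) and Lefty1 105 min (adjusted p = 0.0537), neither passing, and the other 6 fell with 76.2 min for Smad7 to 119 min for Skil. Over all genes tested the share that fell was 25.7% with these weights.

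The raw T>C rate, which does not use the authors' mixture model, again put Nodal fastest and Skil, Lefty2 and Tdgf1 slowest. It fell in 9 of the 10 genes, against 66.9% of 11459 genes tested (limma, adjusted p under 0.05), and the exception was Tdgf1 (adjusted p = 0.241). The rate of Nodal was 9.92, 3.79, 10.8, 1.78, 0.637 and 0.319% in time order, with 95% Wilson intervals of 9.72 to 10.1% at 0 min and 0.265 to 0.385% at 150 min. These intervals cover counting error only. Lefty1 had 9.46% at 0 min and 0.496% at 150 min, Id1 7.02% and 0.29%, Smad7 8.16% and 0.458%, Bmp4 9.48% and 0.474%. In 9 genes the 60 min rate was above the 30 min rate, and Tdgf1 was again the exception. Halving times of the rate were 29.9 min for Nodal, 33.2 for Bmp4, 33.4 for Id1, 34.3 for Lefty1, 36.5 for Smad7, 40.0 for Id3, 42.8 for Id2 and 47.6 for Skil. Lefty2 passed by this measure, from 3.83% to 1.21% with a halving time of 92.8 min (limma adjusted p = 0.026). That call was lost without the 0, 120 or 150 min library (adjusted p = 0.057, 0.0927 and 0.345). Every library had 4sU, so the T>C rate without label was not measured. With an assumed background of 0.001 (as a fraction) taken off, the same 9 genes fell, against 67.0% of 11456 genes tested (limma). Halving times were then 27.3 min for Nodal, 30.0 for Id1 and 30.9 for Bmp4.

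**Figure D2:**
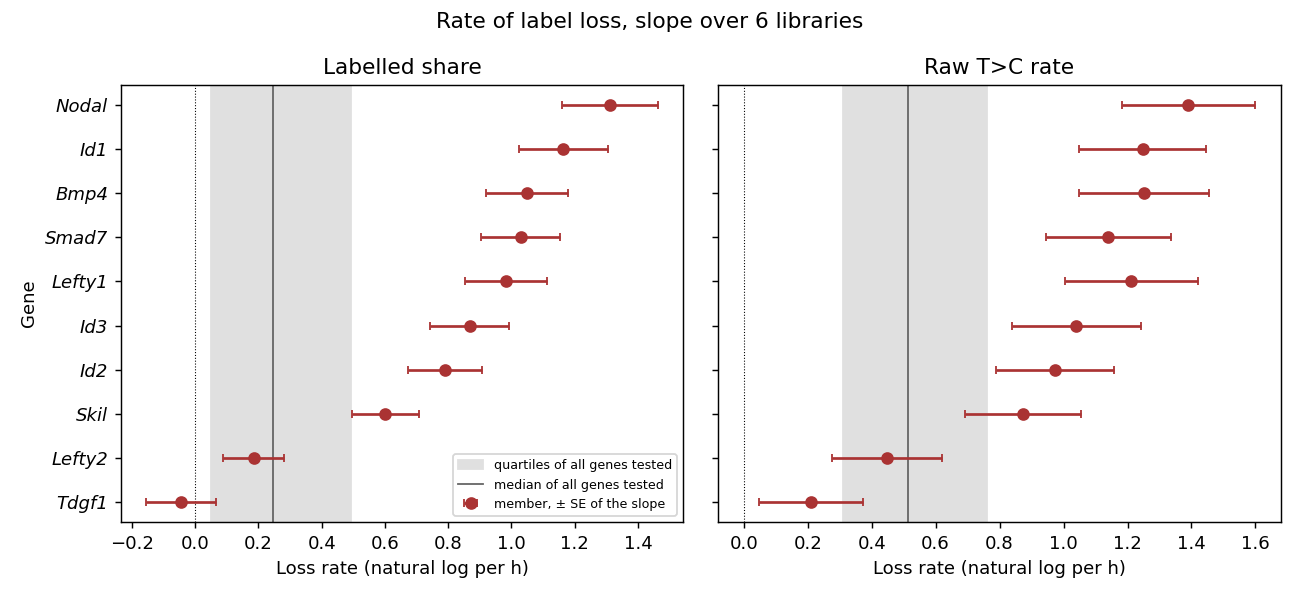
Rate of loss (natural log per h, point) with the SE of the slope (bar) for the labelled share on the left and the raw T>C rate on the right, over 6 libraries; grey bands are the quartiles and vertical lines the medians of all genes tested. Nodal is highest in both panels, at 1.31 and 1.39 per h, and Tdgf1 lowest, at -0.044 and 0.21 per h.

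Differences between genes of one role or family were tested in 8 pairs, as the slope of the difference in ln labelled share over the 6 libraries (exact two-sided permutation over 720 orderings of the times, Benjamini-Hochberg over the 8 pairs; smallest possible p 0.00278). Nodal lost its labelled share faster than Bmp4 by 0.26 ± 0.070 per h (SE; exact permutation adjusted p = 0.0222), than Lefty1 by 0.33 ± 0.073 (adjusted p = 0.0222) and than Lefty2 by 1.13 ± 0.21 (adjusted p = 0.0222). Lefty1 was faster than Lefty2 by 0.80 ± 0.18 per h (exact permutation adjusted p = 0.0267). Smad7 was faster than Skil by 0.43 ± 0.13 per h (exact permutation adjusted p = 0.0476). Id1 was faster than Id2 by 0.37 ± 0.087 (exact permutation adjusted p = 0.0267) and than Id3 by 0.30 ± 0.12 (adjusted p = 0.0296). Id2 and Id3 could not be separated: the difference was -0.077 ± 0.146 per h (exact permutation adjusted p = 0.606). These calls depended on single libraries, and with 5 libraries the smallest possible p is also larger (0.0167 or 0.00833). Of the 7 pairs that differed, 3 still passed without the 0 min library, 3 without the 30 min, 5 without the 60 min and 0 without the 90, 120 or 150 min library, although each of the 7 differences kept its sign. Without the 150 min library the lead of Id1 over Id3 was 0.099 per h, that of Nodal over Bmp4 0.17 and that of Nodal over Lefty1 0.21 per h. On the raw T>C rate, an alternative chosen after seeing the data, 0 of 8 pairs passed (smallest exact permutation adjusted p = 0.0556), and the 7 differences again kept their sign. Nodal then led Lefty1 by 0.18 ± 0.035 per h, Lefty2 by 0.94 ± 0.19 and Bmp4 by 0.14 ± 0.078 per h (SE). Lefty1 led Lefty2 by 0.76 ± 0.20, Smad7 led Skil by 0.27 ± 0.12, and Id1 led Id2 by 0.27 ± 0.065 and Id3 by 0.21 ± 0.12 per h.

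Label taken up in the 4 h pulse gave a second estimate of turnover from the 0 min library alone. At steady state, the labelled share of Nodal corresponds to a half-life of 52.6 min (49.2 to 56.0 from the posterior range), the shortest of the 10. Lefty1 had 71.1 min, Smad7 80.2, Bmp4 83.6, Id3 88.0, Id2 93.6, Skil 101.2 and Id1 113 min. Id1 was thus 2nd fastest by washout and had the longest value of the 8 by uptake. Its posterior range of 103 to 124 min lay above that of Lefty1 (68.0 to 74.4) and Smad7 (75.7 to 84.8). It overlapped those of Skil (97.5 to 105) and Id2 (83.8 to 104), so Id1 was not separated from these. Lefty2 had 348 min and Tdgf1 502 min. All 9 genes with a positive loss rate had longer values from uptake than from washout. The estimates share the 0 min library.

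**Figure D3:**
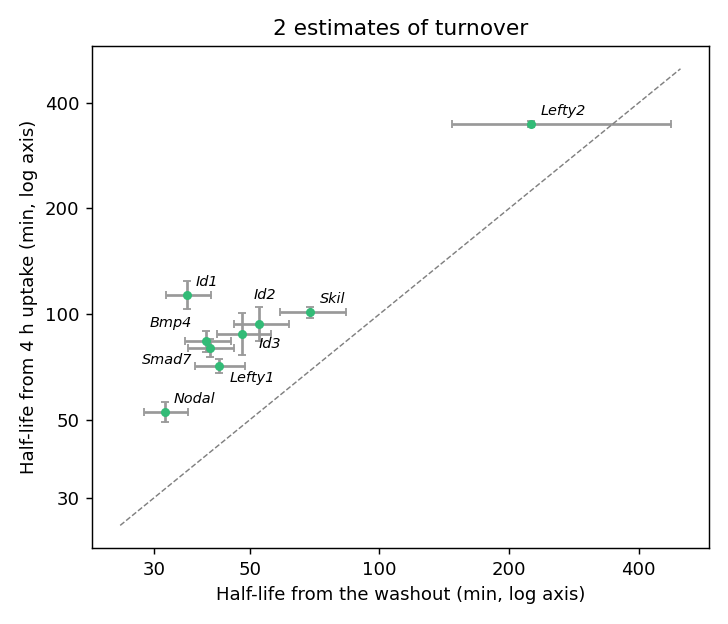
Half-life from label uptake (min, vertical log axis, bars from the 5% to 95% posterior range) against half-life from the washout (min, horizontal log axis, bars at 1 SE) for the 9 genes with a positive loss rate; the dashed line marks equal values. All points lie above the line, with Nodal at 31.7 and 52.6 min and Id1 at 35.7 and 113 min.

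Levels per length differed widely between the genes. The median over libraries was 307 RPKM for Tdgf1 (274 to 420), 297 for Lefty2 (222 to 354), 149 for Lefty1 (110 to 188) and 65.5 for Nodal (49.1 to 78.4). Ranges of Tdgf1 and Lefty2 overlapped, and those of Lefty2, Lefty1 and Nodal did not. Smad7 followed with 30.3 RPKM (21.3 to 33.8), Id1 with 28.2 (21.4 to 35.4) and Bmp4 with 25.4 (15.7 to 40.4), all overlapping. Skil (19.3, 13.4 to 20.8), Id3 (13.7, 11.5 to 19.1) and Id2 (10.9, 9.54 to 15.4) were lowest, each overlapping its neighbour. The median of the genes tested for label was 10.7 RPKM.

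Both kinds of half-life take the level of a gene as constant, so total reads were compared over the washout. By edgeR, 0 of the 10 genes changed in total reads, as did 0 of 14389 genes tested (0.0% fell and 0.0% rose; 3251 had an unadjusted p under 0.05, 5 of the 10 genes among them). DESeq2 called 2.24% of 13802 genes falling and 1.99% rising, Nodal and Id1 among them (adjusted p = 0.00567 and 0.0381). Nodal had 165, 145, 140, 130, 111 and 104 CPM (reads scaled by library total and TMM factor) in time order, each library below the one before. The slope was -0.27 ± 0.060 log2 per h (SE; edgeR adjusted p = 0.0889). Tdgf1 was the other gene with a negative slope, from 816 to 594 CPM (-0.17 ± 0.074 log2 per h; edgeR adjusted p = 0.194), and most of the difference lay between its 0 and 30 min libraries (816 and 600 CPM). Lefty1 had 183.0, 223, 178, 257, 310 and 262 CPM (0.26 ± 0.084 log2 per h; edgeR adjusted p = 0.126). Id1 had 25.01, 31.9, 25.5, 32.6, 41.8 and 40.1 CPM (0.28 ± 0.076; edgeR adjusted p = 0.1). Bmp4 had 54.3, 51.0, 32.3, 44.8, 71.2 and 84.3 CPM (0.28 ± 0.12; edgeR adjusted p = 0.199), with its lowest value in the 60 min library. Without that library edgeR passed Nodal (adjusted p = 0.0123), Lefty1 (0.041) and Id1 (0.0255), and 9.62% of all genes tested. With the 30 and 60 min times exchanged it passed these and Bmp4 (0.0373), and 20.0% of all genes tested. In bulk RNA, fewer cells that express a gene and less RNA per cell cannot be told apart.

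Split by label, the unlabelled reads of the fast genes were higher at 150 than at 0 min. Unlabelled Nodal was 6.97 CPM at 0 min and 99.9 CPM at 150 min, while labelled Nodal went from 158 to 4.02 CPM. Unlabelled Lefty1 was 17.6 and 239 CPM, Smad7 11.5 and 117 CPM, and Bmp4 7.41 and 78.5 CPM at these times. For Tdgf1 the unlabelled reads were 586 CPM at 0 min and 413 CPM at 150 min, and for Lefty2 451 and 673 CPM. These products of 2 estimates have no test. When the labelled CPM was fitted in place of the share, the same 8 genes fell (limma), with half-lives from 27.8 min for Nodal to 79.5 min for Skil. By that fit 47.5% of all 11462 genes tested fell.

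**Figure D4:**
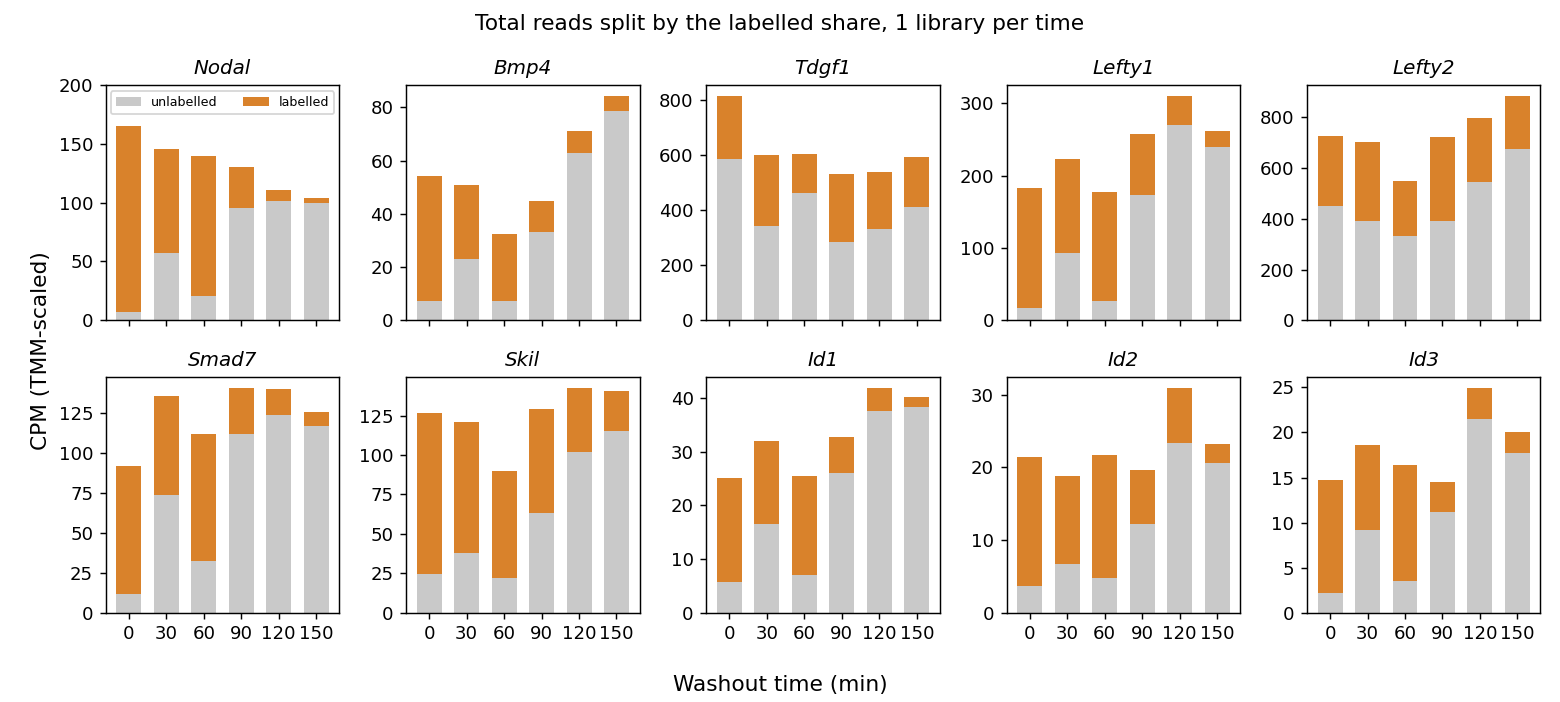
Total reads (CPM, TMM-scaled, full bar height) against washout time (min), split into labelled (orange) and unlabelled (grey) reads by the labelled share, 1 library per time; each gene has its own vertical axis from 0. Unlabelled Nodal goes from 6.97 to 99.9 CPM while its total goes from 165 to 104 CPM.

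AU-rich elements in the 3' untranslated region (UTR), whose core is ATTTA in DNA letters, are a known signal for mRNA decay, so the UTRs of the 10 genes were searched. The longest coding transcript of each gene in GENCODE M21 was used, on the transcript strand only, and TATTTAT matches hold an ATTTA. Among 11255 tested genes with such a UTR, 70.7% held ATTTA and 31.1% TATTTAT. Bmp4 had 2 TATTTAT in a UTR of 339 nt, a number reached by 0.683% of 879 UTRs of similar length (within a ratio of 0.8 either way). Id2 had 2 in 785 nt, reached by 3.91% of 1431. Nodal had 1 in 702 nt (21.5% of 1347). Smad7 had 1 in 1570 nt (36.0% of 1898) and Skil 1 in 3964 nt (59.4% of 1112). Of the shorter ATTTA, Skil had 14, a number reached by 9.08% of the same UTRs of similar length. Smad7 had 4 (33.7%), Id2 3 (20.0%), Bmp4 2 (14.8%) and Nodal 1 (63.1%). Lefty1, Id1 and Id3, which passed, held neither motif in this annotation. Lefty2 and Tdgf1, which did not pass in labelled share, each held 1 ATTTA and 0 TATTTAT. At least 1 ATTTA was held by 81.9% of 1777 and 78.3% of 1733 UTRs of similar length, in that order. Sites are shown for Nodal, Bmp4, Id2 and Tdgf1 only, with the motif in capitals.
Nodal, UTR positions 307 to 335: atatatatatgTATTTATttttgatgcca
Bmp4, positions 216 to 244: caccttgacctTATTTATgactttacgtg
Bmp4, positions 274 to 302: tttgacaaataTATTTATaactacatatt
Id2, positions 201 to 229: tgtgataccgtTATTTATgagagactttc
Id2, positions 450 to 478: tgctgtgtataTATTTATatataaatata
Tdgf1, positions 733 to 761: gaggtactgggaATTTAaaagctaagttc
A match is a description of the letters and was not tested as a site of decay.

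The wider pathway was described from a list of 68 genes by role, all in the table, of which 51 had at least 100 reads on average and were tested. Of these, 36 fell and 0 rose in labelled share (limma, adjusted p under 0.05), against 52.3% of all genes that fell. Leaving out the 10 genes above, 28 of 41 fell, with a median loss rate of 0.35 per h against 0.25 per h for all genes. Without the 30 and 60 min libraries, chosen after seeing the data, 33 of 51 fell against 47.0% of all genes, and Gdf3, Grem1 and Ski no longer passed (limma adjusted p = 0.108, 0.0665 and 0.0547). With the 2 times exchanged, 39 fell against 54.5% of all genes, and Dusp9 rose (adjusted p = 0.0366).

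Over all genes tested 52.3% fell, and no role was tested against that share. All 10 tested intracellular inhibitors and corepressors fell with the 6 libraries, Ski being the one that did not pass without those at 30 and 60 min. The fastest were Smad7 and Bambi, a pseudoreceptor that blocks TGF-beta family signals (42.6 min; 94.7% labelled at 0 min and 8.43% at 150 min). The slowest were Ski, the relative of Skil (156 min), and the ubiquitin ligase gene Smurf1 (121 min). Of 7 tested targets 6 fell, led by Id4 (31.98 min; 87.4 to 2.53%) and Id1, with Id2 and the mesendoderm factor gene Eomes (56.0 min) slowest. The exception was Dusp9, an ERK phosphatase gene (7.95% at 0 min and 12.2% at 150 min; limma adjusted p = 0.0652). Of 6 tested SMADs and partners 5 fell, with Smad1 (60.6 min) and Smad2 (71.9 min) fastest and Smad3 (80.4 min) and the common partner Smad4 (111 min) slowest. Foxh1, the DNA-binding partner of SMAD2/3, had 29.3% at 0 min and 19.3% at 150 min (adjusted p = 0.344).

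Among receptors, ligands and secreted antagonists the share that fell was near the 52.3% of all genes. Of 12 tested receptors and coreceptors 7 fell (58.3%). The fastest were the activin receptors Acvr2a (49.2 min) and Acvr1b (73.2 min), the slowest the BMP receptors Bmpr1a (100.1 min) and Bmpr2 (145 min). The classes were not separate: Acvr1 had 73.4 min and the BMP receptor Bmpr1b 74.5 min, and the activin receptor Acvr2b did not pass (limma adjusted p = 0.0525). Of 9 tested ligands 5 fell (55.6%). After Nodal and Bmp4 the next was Tgfb2 at 133 min. Inhba, which encodes the activin A subunit, had 133 min and Gdf3 had 182 min (limma adjusted p = 0.0483). Of 5 tested secreted antagonists 3 fell (60.0%), Lefty1, the activin-binding follistatin gene Fst (87.7 min) and the BMP antagonist Grem1 (158 min). Neither ligand-processing protease gene passed: Furin had 40.7% at 0 min and 28.6% at 150 min, and Pcsk6 22.8% and 28.7%.

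**Figure D5:**
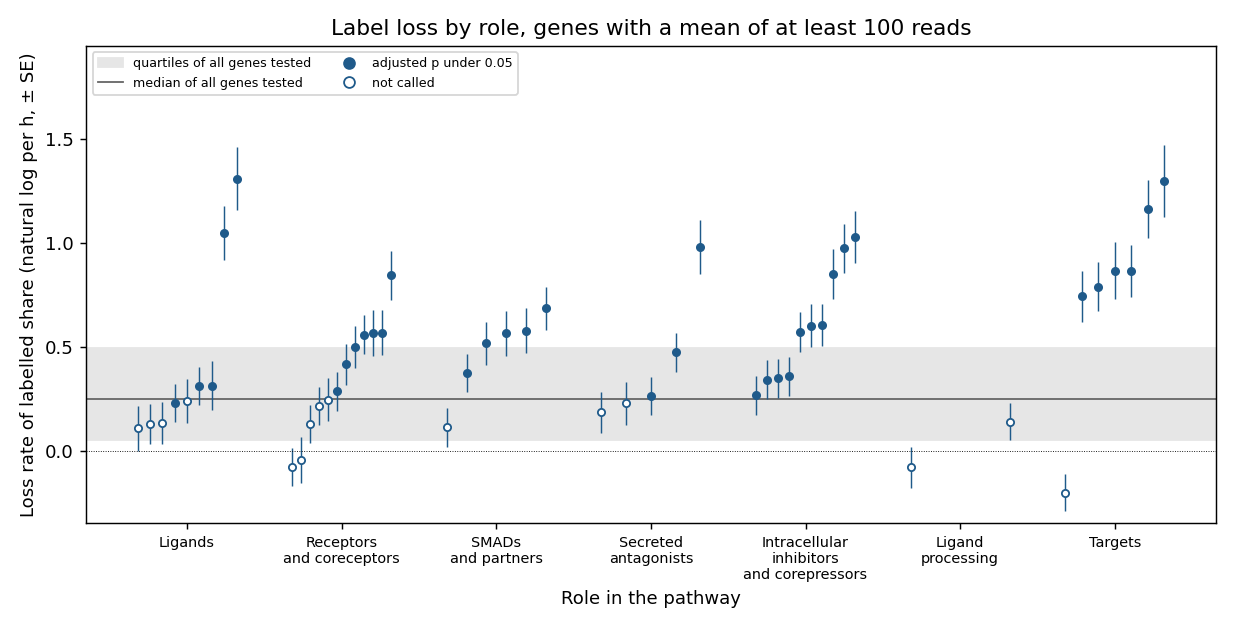
Rate of loss of the labelled share (natural log per h, point) with its SE (bar) for the 51 tested pathway genes, grouped by role; filled points passed at an adjusted p under 0.05, the grey band and line are the quartiles and median of all genes tested. All 10 intracellular inhibitors and corepressors are filled, and Nodal at 1.31 per h is the highest ligand.

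The genes whose labelled share followed 4 of these genes most closely were taken by the smallest root mean square difference over the 6 libraries among 7540 genes with at least 500 reads on average. For Nodal they were Mycn (1.46 percentage points), Zfp59 (2.00) and Fzd5 (2.56). For Smad7 they were Zfp408 (1.06), Zfp553 (1.55) and Arrdc3 (1.55). Sco2 (1.16), Mepce (1.18) and Csrnp1 (1.37) were nearest to Bmp4, and Irf2bp1 (1.60), Dusp6 (2.15) and Gadd45a (2.79) to Id1. Without the 30 and 60 min libraries, chosen after seeing the data, 3 of these 3 stayed nearest to Smad7, 2 to Id1 and 0 to Nodal or Bmp4. Half-lives of these 12 genes ran from 33.6 min for Dusp6 to 42.8 min for Csrnp1.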

How the data were processed

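Nuclear SLAM-seq libraries at 6 washout times, 1 per time, came as 1 table. The submitters' processing notes name STAR 2.5.2b and mm10. No source used here names the program or annotation behind the table. The deposited values are, per the file headers, read counts per gene, conversion and coverage counts (printed with 4 significant digits), and the authors' labelled fraction with quantiles. Column names carry a number or none. Each was matched to a sample title without the ending that all titles share, and every slope rests on that reading; 0 columns were left unmapped.

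Slopes on time were fitted with limma 3.58.1 on ln fraction and on ln T>C rate (mean of at least 100 reads, values above 0 in all libraries) and with edgeR 4.0.16 (quasi-likelihood, TMM, filterByExpr) on counts. DESeq2 1.42.0 was an alternative. Benjamini-Hochberg adjustment ran over all genes tested, with a threshold of 0.05. The fits were run on simulated data with scatter drawn independently for each gene and library. That does not copy deviations of a library that genes share, so it does not vouch for the p-values here. Coordinates, coding sequences and UTRs are from GENCODE M21, which held 23223 of the gene IDs. The genes, lists and tests were chosen with earlier results of these data known. Named genes were the 10 members, the 2 fastest and 2 slowest called genes per role, and the 3 nearest patterns; Dusp9, Foxh1, Furin, Pcsk6, Lum, Dcn and other genes named outside this rule were chosen after their values were seen. Libraries left out and exchanged times were among the alternatives. One sequence is not reported here.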

Additional observations from a re-analysis of the deposited data

How the results depend on the processing

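The count of 8 genes losing labelled share held when each library was left out in turn (8 to 8 genes), without both the 30 and 60 min libraries, with these times exchanged, on the logit scale, with the posterior mode, at other read minimums and on labelled abundance; it was 6 with posterior weights. Over all genes, 31.3 to 55.3% fell with 1 library left out and 25.7% with the weights. Counts for the raw T>C rate ran from 8 to 9. Over all genes tested, the share that fell by that rate moved widely. It ran from 23.7% without the 150 min library to 87.9% with the 30 and 60 min times exchanged. In total reads, 0 to 3 genes passed by edgeR with 1 library left out, 2 without both the 30 and 60 min libraries, 4 with these times exchanged, 1 without a filter on low counts and 2 by DESeq2. Over all genes edgeR called 9.62% without the 60 min library, 3.52% without both, 20.0% with the times exchanged and 1.71% without the filter. Of the 8 pairs, 0 to 5 passed with 1 library left out, 7 with the times exchanged and 0 on the raw T>C rate; 0 passed without both libraries, where the smallest possible p is 0.0417. Signs turned only for results that had not passed: the loss rate of Tdgf1 ran from -0.143 to 0.037 per h with 1 library left out and was 0.072 per h on labelled abundance, and Id2 minus Id3 ran from -0.294 to 0.00267 per h with 1 library left out (0.00116 without the 0 min library). The cause was not tested. Depth limits Id2 and Id3 most, with 324 to 790 reads per library. No paired analysis was possible because there were no replicates.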
